A study of Mus musculus with 6 samples.

Results

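The cytosolic ribosomal protein genes encode the proteins of the large (60S) and small (40S) ribosomal subunits. They were chosen by symbol, as all genes named in the mouse style for such a protein (an Rpl or Rps symbol with a number, Rplp0 to Rplp2, and Rpsa). The pattern matched 88 of the 41254 symbols measured, and 87 were analysed, 50 of the large and 37 of the small subunit. Rpl13 was left out because its estimate had failed: it was listed at 0 in every wild-type library and at 1701 to 1896 FPKM in transgenic ones. Of the 87 members, 82 are coding genes and 5 are pseudogenes in GENCODE M21 (Rps3a2, Rps3a3, Rps4l, Rps12l1 and Rps12l2).

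Total RNA, depleted of ribosomal RNA, was sequenced from DN3a thymocytes of adult C57BL/6 mice, in 3 transgenic libraries (genotype Tg_Cd2_GATA3) and 3 wild-type libraries. DN3a cells are early T cell precursors without CD4 or CD8 that are rearranging their T cell receptor beta genes. The labels say no more of the construct, and do not say whether a library held 1 mouse or several, so the p-values measure the spread between these libraries. Per the title the study asks about the amount of GATA3, a transcription factor of T cell development.

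Each ribosome holds 1 copy of nearly every ribosomal protein, so cells make these mRNAs in similar and very large amounts. Many of the mRNAs start with a C followed by a run of pyrimidines, the terminal oligopyrimidine (TOP) tract, through which mTOR and the RNA-binding protein LARP1 control their translation. Thymocytes are sensitive to this machinery: loss of Rpl22 in mice blocks the alpha-beta T cell lineage near the step that follows DN3a.

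The starts of 5 members are shown because they carry the tract by which this family is regulated or lack it at the annotated start. Each run gives 15 bases before the annotated RefSeq start and 25 from it, in build GRCm38.p6. Capitals mark the C at the start and the unbroken C or T bases after it, where there were at least 4 of these.
Rps6: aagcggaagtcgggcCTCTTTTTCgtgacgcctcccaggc
Rpl15: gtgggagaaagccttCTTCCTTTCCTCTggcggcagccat
Rpl38: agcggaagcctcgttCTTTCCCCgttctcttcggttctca
Rpl14: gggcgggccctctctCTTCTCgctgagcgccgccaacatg
Rps25: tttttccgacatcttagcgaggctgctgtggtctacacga
The windows lie at chr4:86857343-86857382 (minus strand) for Rps6 and at chr14:18270962-18271001 (minus) for Rpl15. Those of Rpl38, Rpl14 and Rps25 lie on the plus strand, at chr11:114668565-114668604, chr9:120571502-120571541 and chr9:44407699-44407738. Rps6, the small subunit protein phosphorylated by S6 kinase, had a tract of 9 bases and Rpl15 the longest among the members, 13 bases. Rps25 had none at its annotated start, though a run of T and C bases opens its window before that start.

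Promoters (250 bases before to 50 after the start) were found in RefSeq for 62 members. A C followed by at least 4 pyrimidines stood at the annotated start of 13 of them (21.0%), against 467 of 17491 coding genes (2.67%). The letters CCGGAAG, as bound by ETS family factors, were present on either strand in 26 members (41.9%) and in 12.9% of coding genes. AAGATGGC, part of a YY1 motif, was present in 9.68% of members and 3.57% of coding genes, and TATAAA in 11.3% of members and 14.8% of coding genes. An annotated start can be off by a few bases, so the count of tracts depends on that annotation.

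The ribosomal protein genes made up most of the highest messages of these cells. By FPKM, a level per transcript length, they held 70 of the 100 highest coding genes in transgenic libraries and 68 of 100 in wild-type libraries. Among the 50 highest they held 39 in transgenic and 37 in wild-type libraries. Genes with a failed estimate, such as Rpl13, were left out of these ranks. In wild-type libraries 75 members averaged over 500 FPKM, 65 over 1000, and 6 under 10. The abundant members were 76 genes of at least 300 FPKM in wild type, leaving out the paralog Rpl22l1. Their median was 1559 to 1664 FPKM in transgenic libraries and 1616 to 1649 FPKM in wild-type libraries. Small subunit members had the higher median, 1799 to 1891 FPKM in transgenic and 1878 to 1973 FPKM in wild-type libraries, against 1373 to 1447 and 1428 to 1478 FPKM for the large subunit.

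**Figure D1:**
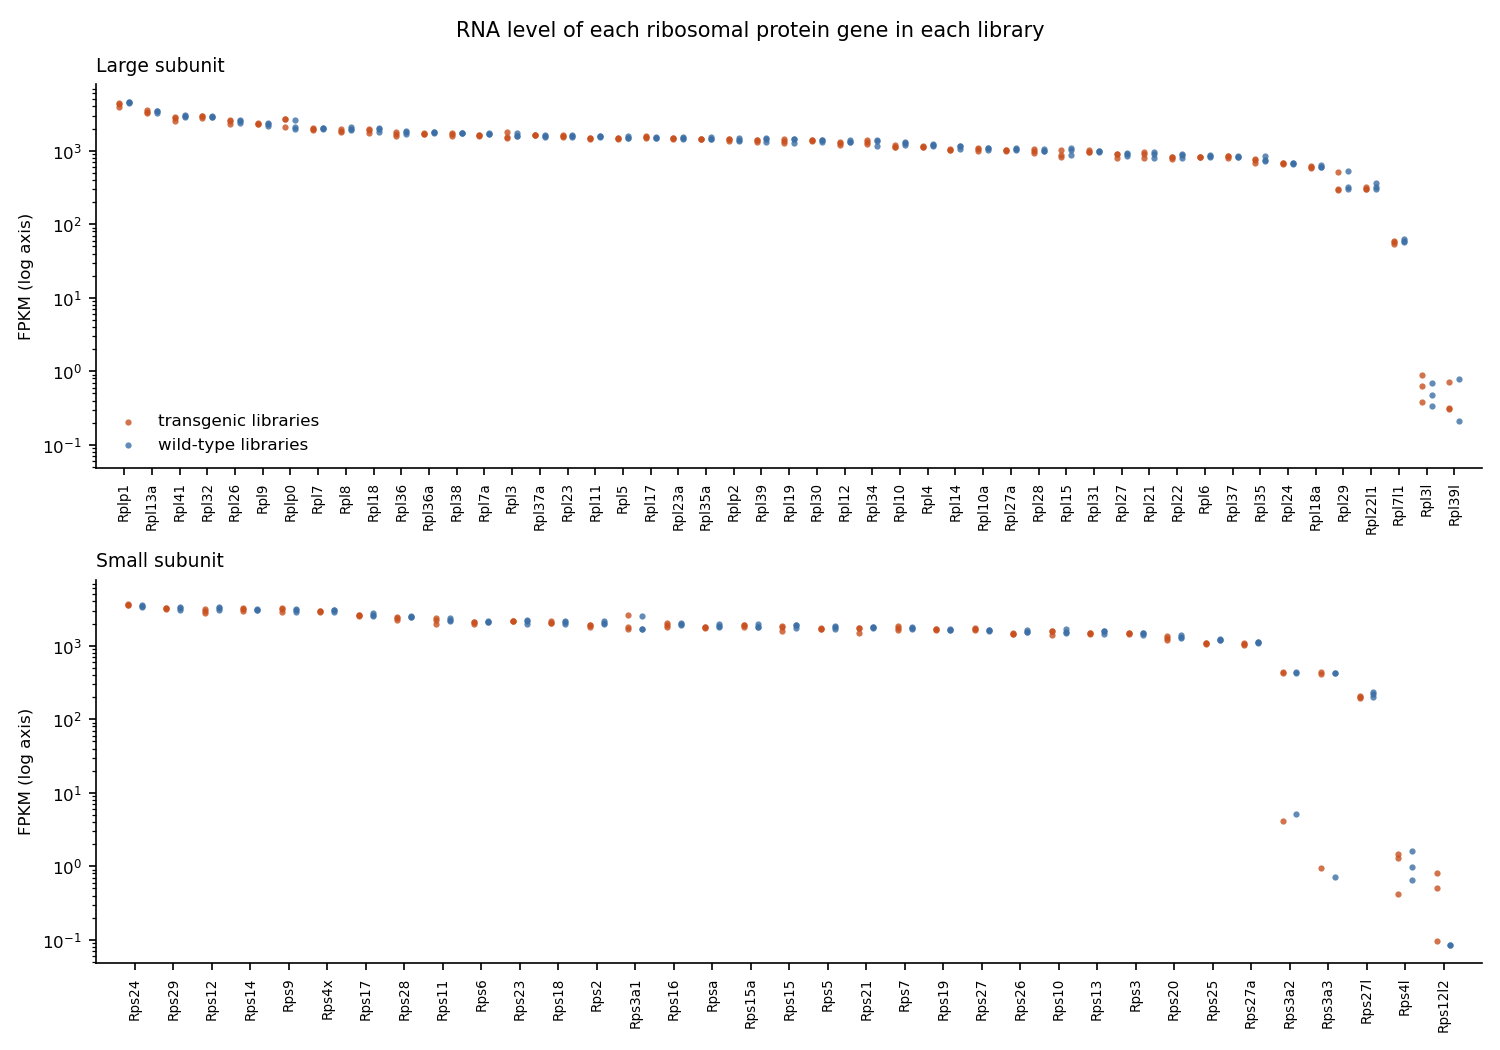
FPKM (log axis) of 84 members with a fragment in any library, large subunit above and small subunit below, ordered by wild-type mean, with 3 transgenic libraries (orange) left of 3 wild-type libraries (blue). Most members lie near or above 1000 FPKM with the libraries close together, Rps3a2, Rps3a3 and Rpl29 have 1 library of each group set apart, and Rpl3l, Rpl39l, Rps4l and Rps12l2 lie near or below 1 FPKM.

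Rplp1, an acidic protein of the stalk that recruits elongation factors, had the highest level. It stood at 4419, 3984 and 4247 FPKM in the transgenic libraries and at 4604, 4413 and 4536 FPKM in the wild-type libraries. The other stalk genes were lower, Rplp0 with 2487 ± 363 FPKM in transgenic and 2239 ± 334 FPKM in wild-type libraries (SD, n = 3 each). Rplp2 averaged 1409 ± 58.2 FPKM in transgenic and 1422 ± 71.9 FPKM in wild-type libraries. The next levels belonged to Rps24, with 3602 ± 52.9 FPKM in transgenic and 3465 ± 85.0 FPKM in wild-type libraries, and to Rpl13a, with 3410.4 ± 153 FPKM in transgenic and 3399.7 ± 119 FPKM in wild-type libraries. Rps29 (3205 ± 91.7 FPKM transgenic, 3239.8 ± 124 FPKM wild type) and Rps12 (2952 ± 207 FPKM transgenic, 3229 ± 152 FPKM wild type) came next in wild type, where they differed from each other by less than their SDs. Transcripts as short as these give FPKM values that depend on the length correction of the authors' software.

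Genes with known roles outside bulk translation sat within this range. Rps6 averaged 2056 ± 73.7 FPKM in transgenic and 2126 ± 57.0 FPKM in wild-type libraries. Rpl5 and Rpl11, which bind Mdm2 together with 5S ribosomal RNA when ribosome assembly fails, averaged 1487 ± 30.8 and 1468 ± 26.0 FPKM in transgenic libraries. Their wild-type means were 1511 ± 62.4 FPKM for Rpl5 and 1559.8 ± 10.2 FPKM for Rpl11. Rps19, mutated in Diamond-Blackfan anaemia in humans, averaged 1668 ± 33.9 FPKM in transgenic and 1648 ± 32.5 FPKM in wild-type libraries. Rpl38, whose loss in mice disturbs skeletal patterning, averaged 1658 ± 86.4 FPKM in transgenic and 1726 ± 5.19 FPKM in wild-type libraries. The groups overlapped in FPKM for Rps6, Rpl5, Rps19 and Rpl38 and did not for Rpl11, whose groups overlapped in scaled counts. None was called in the test across genes given below.

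Paralogs of some members split into expressed and nearly silent ones. Rpl22, the protein on which the alpha-beta lineage depends in mice, averaged 808 ± 36.0 FPKM in transgenic and 859 ± 51.2 FPKM in wild-type libraries. Its paralog Rpl22l1, which rises in mice that lack Rpl22, averaged 310.5 ± 10.5 FPKM in transgenic and 326 ± 31.2 FPKM in wild-type libraries. Rps27l, a p53-induced paralog of Rps27, averaged 199.9 ± 7.69 FPKM in transgenic and 217 ± 16.6 FPKM in wild-type libraries. Rpl7l1 averaged 56.8 ± 2.72 FPKM in transgenic and 59.8 ± 3.33 FPKM in wild-type libraries. The striated muscle paralog Rpl3l stayed under 1 FPKM in all 6 libraries, as did the testis paralog Rpl39l. Rpl10l, another testis paralog, and Rps12l1 had no fragment in any library.

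Some members shared sequence with near-identical copies, and their fragments were divided differently between libraries. A search of member coding sequences against the transcripts of the table (at least 95% identity over at least 80% of the coding length, a rule chosen after the data were seen) found 398 copies of 72 members, 379 of them pseudogenes. Most held little: 12 copies had at least 500 fragments in any library, and 46 had none. Among these 12, 7 copies of 4 members (Rplp0, Rps3a1, Rpl3 and Rpl15) differed by at least 10-fold between libraries. The windows below show how little separates the largest of them. Each is 60 bases of coding sequence from GENCODE M21 (GRCm38), coding bases 609 to 668 of Rps3a1 and 244 to 303 of Rplp0, with capitals where the sequences of a family differ.
Rps3a1: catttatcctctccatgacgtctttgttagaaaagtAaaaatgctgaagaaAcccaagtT
Rps3a2: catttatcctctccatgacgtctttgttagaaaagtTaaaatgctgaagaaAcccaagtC
Rps3a3: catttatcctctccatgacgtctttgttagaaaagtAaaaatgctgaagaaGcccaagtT
Rplp0: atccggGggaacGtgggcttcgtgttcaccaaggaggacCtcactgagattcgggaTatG
Gm8730: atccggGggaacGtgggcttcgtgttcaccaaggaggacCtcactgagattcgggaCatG
Gm9625: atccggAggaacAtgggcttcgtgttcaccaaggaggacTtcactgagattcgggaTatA
Over all 792 coding bases Rps3a2 differed from Rps3a1 at 4 and Rps3a3 at 9 positions, with identical runs of up to 317 and 215 bases. Over the 951 coding bases of Rplp0, Gm8730 differed at 12 and Gm9625 at 24 positions.

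Rps3a2 held 148, 14339 and 14081 fragments in transgenic replicates 1 to 3, and 198, 17732 and 16989 in wild-type replicates 1 to 3. Rps3a3 was divided alike, with 34, 14201 and 14135 fragments in the transgenic libraries and 28, 17261 and 16456 in the wild-type ones. Rps3a1 itself, a protein of the small subunit, held 118742, 71409 and 70903 fragments in the transgenic libraries, and 123511, 87356 and 81446 in the wild-type libraries. Replicate 1 of each group thus had nearly all fragments of the family on Rps3a1, and the other 4 libraries had a part of them on the pseudogenes. With the copies added, Rps3a1 stood at 2644 ± 180.0 CPM (counts scaled to the size of the library) in transgenic and 2629 ± 78.3 CPM in wild-type libraries, and its coefficient of variation was 6.81% in transgenic libraries, against 27.6% without the copies. In wild-type libraries it was 2.98% with and 23.5% without the copies.

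Rplp0 divided in another way. Its copy Gm8730 held 66, 46 and 22977 fragments in transgenic replicates 1 to 3 and 72, 27310 and 25090 in the wild-type ones. Rplp0 itself stood at 3878, 3884 and 2831 CPM in the transgenic libraries and at 3767, 2932 and 2869 CPM in the wild-type libraries. The 3 libraries with high Gm8730 were those with low Rplp0, 1 transgenic and 2 wild type. With the copies added the values were 3882, 3880.0 and 3564 CPM in transgenic libraries and 3758, 3668 and 3576 CPM in wild-type libraries. Rpl3-ps1 held 500, 4980 and 4900 fragments in transgenic and 548, 6283 and 6075 in wild-type libraries, the pattern of Rps3a2. What set the division in each library was not tested.

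**Figure D2:**
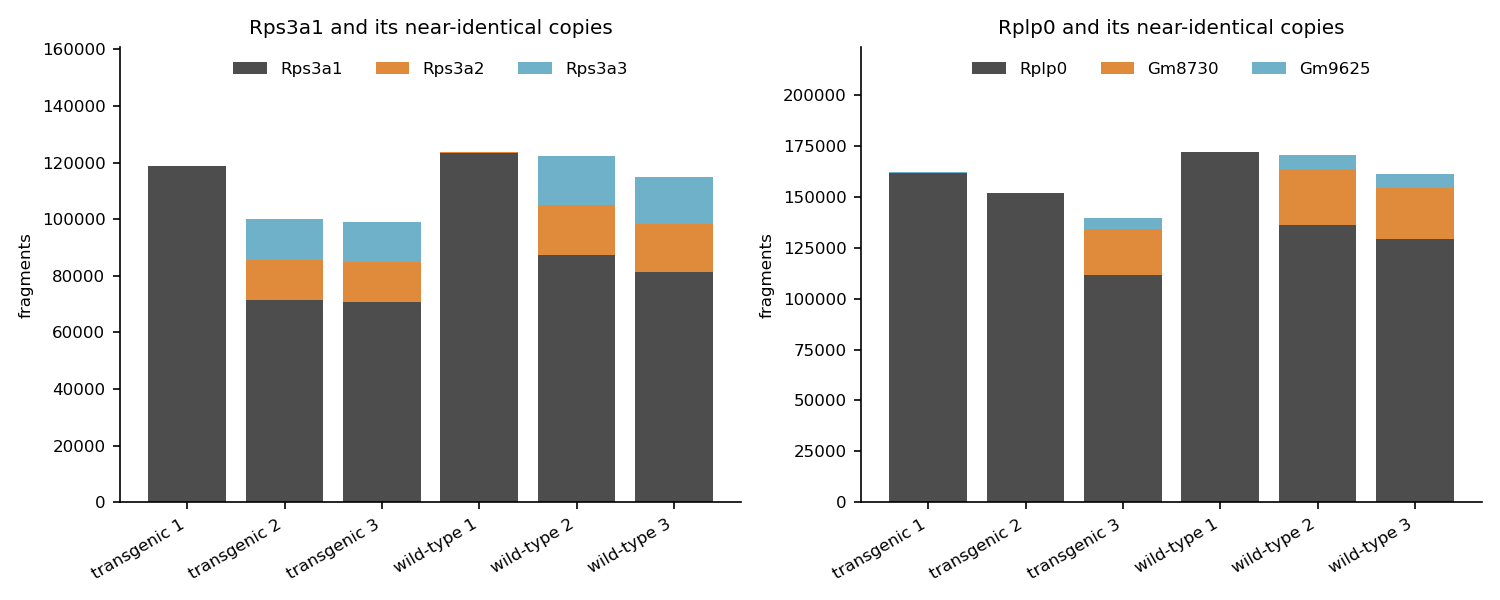
Fragments of Rps3a1 (left) and Rplp0 (right) and of 2 near-identical copies of each, stacked, in 3 transgenic and then 3 wild-type libraries. The copies are almost empty in replicate 1 of each group and, for Rplp0, also in transgenic replicate 2, while Rps3a2 holds 14081 to 17732 fragments in the other 4 libraries.

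For Rpl15 too the division differed between libraries. Alone it had 908, 789 and 777 CPM in transgenic libraries and 936, 828 and 900 CPM in wild-type libraries. With its copies added it had 912, 867 and 850 CPM in transgenic libraries and 937, 896 and 905 CPM in wild-type libraries. Its log2 fold change was -0.11 ± 0.07 alone and -0.06 ± 0.06 with the copies (edgeR). The shared sequence of Rps27 was divided about alike in all libraries. Rps27rt, whose coding sequence equals the 252 coding bases of Rps27, held 21634, 20188 and 20384 fragments in transgenic and 24172, 25092 and 22690 in wild-type libraries, more than the symbol Rps27. Rps27 had 194 ± 15.2 CPM in transgenic and 188 ± 5.42 CPM in wild-type libraries, and with the copy 712 ± 14.2 CPM in transgenic and 711 ± 22.8 CPM in wild-type libraries. The levels of Rps27 alone are therefore uncertain. Rpl29 was set apart in replicate 1 of each group without such a copy: with all its copies added it had 385, 232 and 212 CPM in transgenic libraries and 393, 246 and 231 CPM in wild-type libraries.

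The transgenic and wild-type libraries differed little in these genes, and no member was called. Of the 87 members, 83 passed the filter on low counts (all but Rpl10l, Rpl39l, Rps12l1 and Rps12l2). With edgeR's quasi-likelihood test over 14653 genes, 0 of 83 had a Benjamini-Hochberg adjusted p under 0.05, where 0.0136% of all genes tested were called. The lowest adjusted p among members was 0.199, for Rps25. At an unadjusted p under 0.05 there were 4 members lower in transgenic libraries (Rps25, Rpl14, Rps2 and Rpl10), against 7.7% of all genes, and 0 higher, against 5.71%. In bulk RNA, fewer cells of a type and less RNA per cell cannot be told apart. The authors' deposited table has 0 of 349 member transcripts with a q-value under 0.05, the lowest being 0.998. The share of all its transcripts under 0.05 was not counted, so this adds no separate support.

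The fitted changes were small and mostly on 1 side. Of 83 members, 69 had a log2 fold change below 0 and 14 above 0, where 49.8% of all genes were below and 50.2% above. The median was -0.04, against 0.00 over all genes tested and -0.02 over the 1047 genes of at least 200 CPM. The median standard error was 0.05 for members and 0.06 for those 1047 genes. The large subunit had 42 of 48 below 0 with a median of -0.05, and the small subunit 27 of 35 with a median of -0.04. The 95% interval of the change lay within 1.25-fold in both directions for 76 members and within 1.5-fold for 78, bounds chosen after the values were seen. The 5 members with wider intervals were Rpl29, Rps3a2, Rps3a3, Rps4l and Rpl3l, of which the first 3 had a replicate set apart and the other 2 had about 1 CPM or less. Members are transcribed into 1 pool of RNA and scaled together in each library, so they are not independent of each other.

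**Figure D3:**
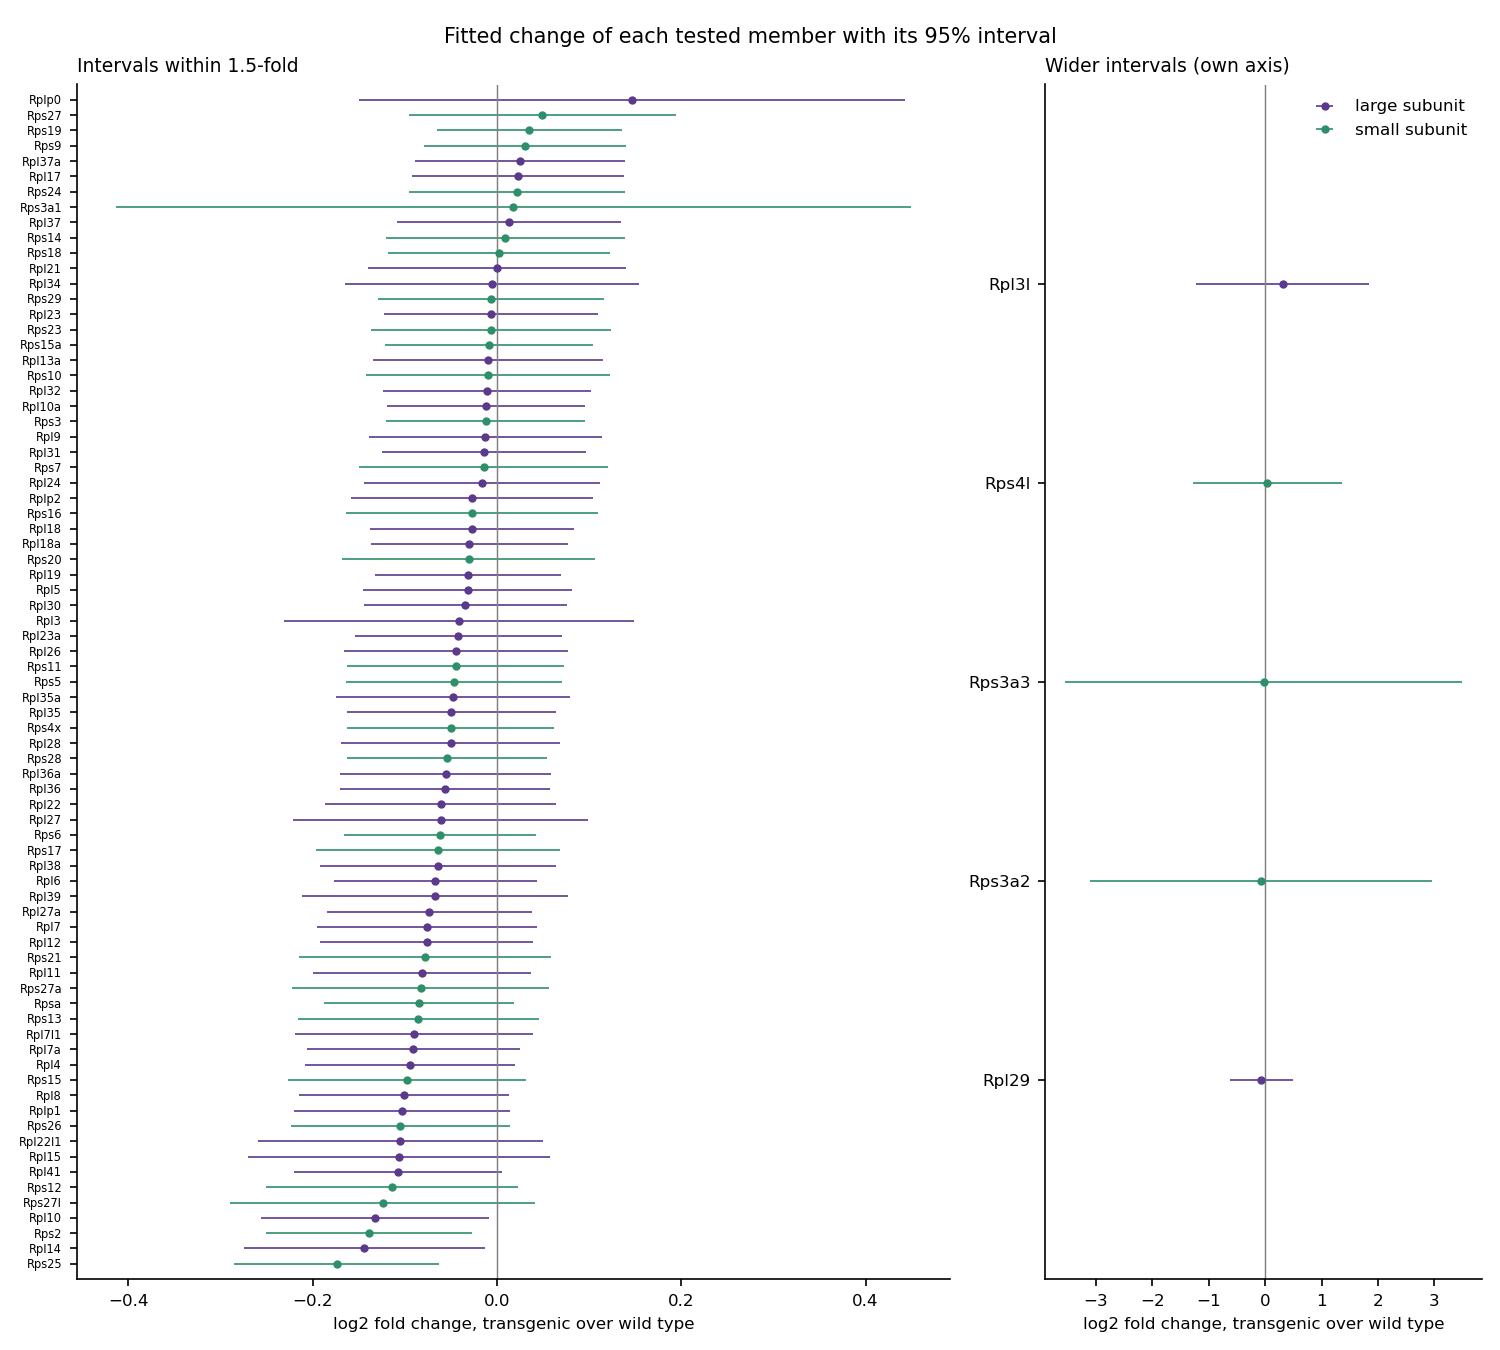
Fitted log2 fold change (transgenic over wild type, edgeR) of 82 of the 83 tested members with its 95% interval, large subunit in purple and small subunit in green, 77 with intervals within 1.5-fold on the left and 5 with wider intervals on an axis of their own. Nearly all points lie between -0.17 and 0.05, with most of them below 0.

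Rps25, a small subunit protein needed by some viral internal ribosome entry sites, had the most negative fitted change. It had 691, 681 and 652 CPM in transgenic libraries and 750.2, 766 and 767 CPM in wild-type libraries. Every transgenic library was below every wild-type library, on the CPM scale and on the FPKM scale (1070 to 1095 FPKM transgenic, 1184 to 1220 FPKM wild type). The log2 fold change was -0.17 ± 0.05 (SE), with an interval of 0.821-fold to 0.957-fold. Rps25 was not called by edgeR (Benjamini-Hochberg adjusted p = 0.199), and was called lower by DESeq2 (adjusted p = 0.0253), which called 3.03% of the genes it gave an adjusted p lower.

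Rps2, a protein of the messenger RNA entry channel, had 1704, 1697 and 1647 CPM in transgenic libraries and 1763, 1935 and 1861 CPM in wild-type libraries. Its groups did not overlap, with a log2 fold change of -0.14 ± 0.05 (edgeR, Benjamini-Hochberg adjusted p = 0.277). Rpl14, of the large subunit, had 1097, 1091 and 1012 CPM in transgenic libraries and 1109, 1236 and 1191 CPM in wild-type libraries. Its highest transgenic value was close to its lowest wild-type value, and the log2 fold change was -0.14 ± 0.06 (adjusted p = 0.319 by edgeR). Rpl10, a late-joining protein near the peptidyl transferase centre, had 778, 741 and 706 CPM in transgenic libraries and 786, 823 and 829 CPM in wild-type libraries. Its log2 fold change was -0.13 ± 0.06 (adjusted p = 0.332 by edgeR). Groups also did not overlap for Rpl41, Rps26, Rpl8, Rpl6 and Rps28, all lower in transgenic libraries. That made 9 of 83 members (10.8%), where 10.1% of all genes had groups that did not overlap in this direction. For the other direction there were 0 members, against 8.73% of all genes.

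On the positive side, Rplp0 had the largest fitted change among abundant members, 0.15 ± 0.13, and this value moved with its copies: 0.04 ± 0.06 with them added (edgeR adjusted p = 0.693 and 0.828). Rps27, Rps19, Rps9, Rpl37a and Rpl17 followed with 0.05, 0.04, 0.03, 0.03 and 0.02. Rps19 had 1257, 1272 and 1232 CPM in transgenic libraries and 1221, 1236 and 1214 CPM in wild-type libraries, which overlap. Changes of Rpl22 (-0.06 ± 0.06) and Rpl22l1 (-0.10 ± 0.07) were not called. Rps27l (-0.12 ± 0.07) and Rps12 (-0.11 ± 0.06) had larger negative values and were not called either. The 13 members with a tract at the start and the other 47 tested members with a promoter had the same median, -0.05, with 11 of 13 and 39 of 47 below 0. The split rests on the annotated start, and some of the 47, such as Rpl7a and Rpl27a, have runs of C and T across it. It therefore cannot compare members with and without the tract.

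The remaining members with a paralog or a known role had values in the same narrow range. Rpsa, a small subunit protein also known as a laminin receptor, had 3477 ± 148 CPM in transgenic and 3686 ± 93.4 CPM in wild-type libraries, a log2 fold change of -0.08 ± 0.05. Rps14, whose loss is tied to the human 5q- syndrome, had 2107 ± 106 CPM in transgenic and 2093 ± 121 CPM in wild-type libraries. Rps3, which lines the messenger RNA entry channel, had 2022 ± 78.0 CPM in transgenic and 2039.5 ± 56.7 CPM in wild-type libraries. Rps27a, made as a fusion with ubiquitin, had 679 ± 44.3 CPM in transgenic and 719 ± 29.0 CPM in wild-type libraries. The X-linked Rps4x had 2647 ± 118 CPM in transgenic and 2741 ± 100.04 CPM in wild-type libraries, while Rps4l had 1.01 ± 0.58 CPM in transgenic and 0.98 ± 0.40 CPM in wild-type libraries. The other genes with a paralog, Rpl3, Rpl7 and Rpl39, had log2 fold changes of -0.04 ± 0.08, -0.08 ± 0.05 and -0.07 ± 0.06, and Rpl23, another Mdm2-binding protein, had -0.01 ± 0.05. The groups of these members overlapped, and edgeR called none of them (adjusted p 0.475 or more).

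The totals of each subunit, as shares of fragments, moved no further than the members. The large subunit took 5.30, 5.10 and 4.85% of the fragments of transgenic libraries and 5.20, 5.21 and 5.05% of those of wild-type libraries. The small subunit took 4.29, 4.12 and 4.04% in transgenic and 4.13, 4.33 and 4.16% in wild-type libraries. The groups overlapped for both, and two-sided exact permutation tests gave p = 0.7 and p = 0.5, where 0.1 is the smallest value that 3 against 3 allows. The ratio of summed FPKM, large over small, was 1.08, 1.07 and 1.05 in transgenic libraries and 1.09, 1.06 and 1.07 in wild-type libraries (exact permutation p = 0.8). The difference between the groups was -0.0041, smaller than either SD (0.012 transgenic, 0.016 wild type). These ratios leave out copies that are not members, such as Gm8730, so their spread includes how fragments were divided between members and copies. With the near-identical copies added the ratio was 1.039, 1.037 and 1.029 in transgenic libraries and 1.050, 1.030 and 1.045 in wild-type libraries. The groups overlapped there too, and the subunits were in a nearly fixed proportion in all 6 libraries.

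Libraries of 1 group differed from each other about as much as the groups did. Of the 76 abundant members, 51 had their lowest CPM in transgenic replicate 3 and 43 their highest in wild-type replicate 2. The median deviation of these members from their mean over the 6 libraries was 0.02, -0.03 and -0.07 on the log2 scale in the transgenic libraries, and 0.00, 0.07 and 0.01 in the wild-type libraries. Without transgenic replicate 3 the median fitted change of the members was -0.02, and without wild-type replicate 2 it was -0.03. Transgenic replicate 3 and wild-type replicate 1 also carried Y-linked RNA (16840 and 18522 fragments), against 16 to 26 fragments in the other 4 libraries. The spread within groups was small all the same: the median coefficient of variation of the abundant members was 3.78%, against 4.51% for all genes of at least 200 CPM. It exceeded 10% for 3 of them, and the 3 highest were Rpl29, Rps3a1 and Rplp0.

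**Figure D4:**
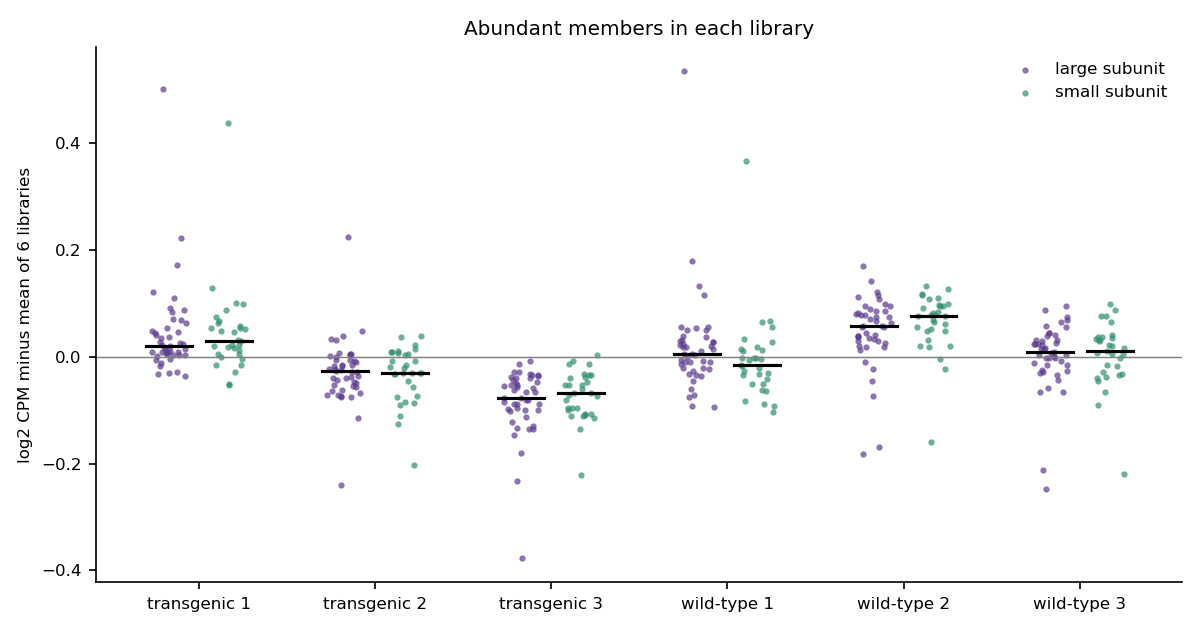
Deviation of log2 CPM from the mean of 6 libraries for 76 abundant members, in 3 transgenic and then 3 wild-type libraries, large subunit in purple and small subunit in green, with the median as a bar. Both subunits shift together within a library, from a median near -0.07 in transgenic replicate 3 to 0.07 in wild-type replicate 2, and the points far from the rest include Rpl29, Rps3a1 and Rplp0.

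Leaving out both libraries with Y-linked RNA gave the 1 other member call among the alternatives. Rplp0 was then called higher in transgenic libraries (log2 fold change 0.42, edgeR adjusted p = 0.00161), in a comparison that called 0.432% of genes higher. That comparison sets 2 transgenic libraries with few fragments on Gm8730 against 2 wild-type libraries with many. With the copies added, in the same 4 libraries, the change was 0.10 and was not called (adjusted p = 0.259). Without wild-type replicate 1, edgeR called 3.32% of all genes and 0 members, and with Y-linked RNA as a covariate it called 1.75% of all genes and 0 members.

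Fragments also fell on transcripts of member genes that are not annotated as coding. Counted with them were 19 of the 361 member transcripts that GENCODE M21 does not list. Total RNA holds unspliced and non-coding forms, and ribosomal protein genes are common hosts of intronic small nucleolar RNAs, which guide the modification of ribosomal RNA. Such transcripts held 3.79, 4.71 and 4.78% of the members' fragments in transgenic libraries, and 3.78, 4.66 and 4.70% in wild-type libraries. Replicate 1 of each group was the lowest. These shares include the pseudogene members, and Rps3a2 and Rps3a3 were nearly empty in those libraries. The low shares of replicate 1 are therefore no measure of unspliced RNA. Retained-intron transcripts held 1.97 to 2.20% in transgenic and 2.07 to 2.17% in wild-type libraries. In 7 of the 79 coding members over 1 FPKM the share was over 10%. Rps20 had the highest of these, 51.4, 49.3 and 49.8% in transgenic libraries and 51.3, 49.96 and 51.4% in wild-type libraries. Rpl13a had 31.9, 33.6 and 30.7% in transgenic libraries and 27.3, 34.4 and 32.2% in wild-type libraries. Of these 7 members, 5 hold a small nucleolar RNA gene within their bounds, Rps20 and Rpl13a among them, as do 29 of 79 coding members over 1 FPKM. Estimated counts of such overlapping transcripts depend on how the authors' software divided them.

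Among the other genes that build or serve the ribosome, edgeR called 0 in either direction. Unadjusted p was under 0.05 for 7.7% of all genes tested on the lower side and 5.71% on the higher side, and DESeq2 called 3.03% lower and 1.5% higher. All 12 genes of the ribosomal RNA processing and small nucleolar ribonucleoprotein list had a log2 fold change below 0, with a median of -0.23. Unadjusted p was under 0.05 for 10 of them, against 7.7% of all genes lower, and DESeq2 called 6 lower, against 3.03%. Ncl, the nucleolar protein nucleolin, had 367, 366 and 344 CPM in transgenic libraries and 402, 500.5 and 460.4 CPM in wild-type libraries, which did not overlap. Its log2 fold change was -0.34 ± 0.08 (edgeR, Benjamini-Hochberg adjusted p = 0.159), and that of Nolc1, a nucleolar partner of small nucleolar ribonucleoproteins, was -0.22 ± 0.05 (adjusted p = 0.159 by edgeR). In that list wild-type replicate 1 was the lowest of its group, with a summed 3331 CPM, against 3919 and 3712 CPM in the other wild-type libraries and 3148, 3238 and 3075 CPM in the transgenic ones.

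Assembly factors had medians of -0.07 (23 of 24 below 0) for the small subunit and -0.10 (20 of 25) for the large subunit. At an unadjusted p under 0.05, the large subunit factors had 7 lower and 1 higher, and the small subunit factors had 0 in either direction, beside 7.7% lower and 5.71% higher over all genes. Mrto4, a stand-in for Rplp0 during assembly, stood at -0.23 ± 0.07 on the log2 scale (edgeR adjusted p = 0.221), and Brix1, another large subunit factor, -0.29 ± 0.10 (adjusted p = 0.236). RNA polymerase I genes had a median of -0.04, with 11 of 14 below 0. Polr1e, one of its subunits, had -0.24 ± 0.08 (edgeR adjusted p = 0.257).

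Initiation factors had a median of -0.11, with 25 of 28 below 0, 12 of them at an unadjusted p under 0.05 (7.7% of all genes). DESeq2 called 2 lower (3.03% of all genes). Eif2s1, a subunit of the factor that brings the initiator tRNA, had 174, 164 and 161 CPM in transgenic libraries and 184, 204 and 194 CPM in wild-type libraries (log2 fold change -0.22 ± 0.06, edgeR adjusted p = 0.182). All 6 elongation factors were below 0, with a median of -0.10, and DESeq2 called Eif5a lower. Eif5a, which helps ribosomes past difficult peptide bonds, had 615, 625 and 544 CPM in transgenic and 689, 774 and 719 CPM in wild-type libraries. The 9 other genes with TOP mRNAs, such as Npm1 (1245 ± 65.4 CPM transgenic, 1489 ± 177 CPM wild type), were all below 0 with a median of -0.10. Some of these genes stand in more than 1 list. The mTOR and S6 kinase list had a median of 0.00, with 8 of 17 below 0. Fau, which makes a small subunit protein as a ubiquitin-like fusion (562 ± 10.9 CPM transgenic, 563 ± 26.1 CPM wild type), and Gnb2l1, the gene of the 40S partner Rack1 (2723 ± 76.9 CPM transgenic, 2783 ± 61.8 CPM wild type), overlapped between the groups.

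**Figure D5:**
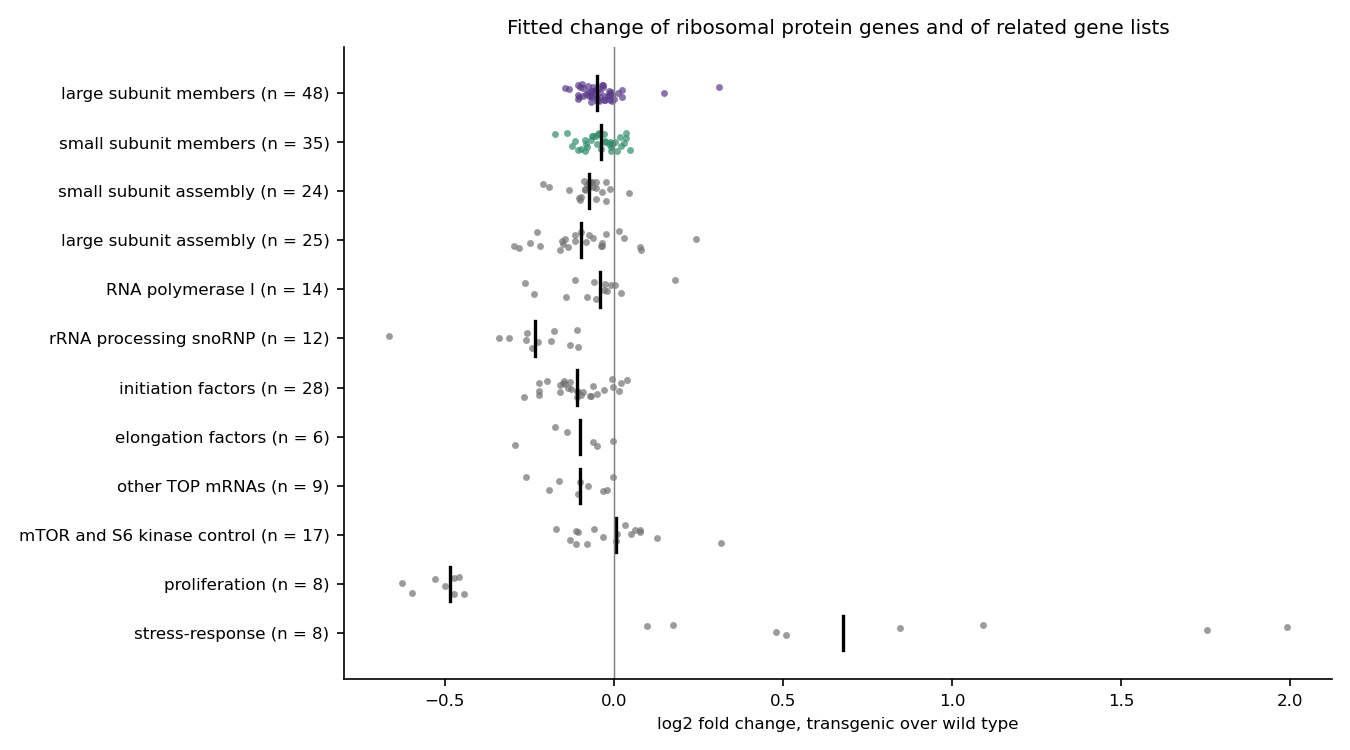
Fitted log2 fold change (transgenic over wild type, edgeR) of the 48 large and 35 small subunit members and of the genes of 10 related lists, 1 point per gene with the median as a bar. Ribosomal protein genes lie in a narrow band just below 0, the ribosomal RNA processing list is lower with a median of -0.23, and the proliferation and stress-response lists lie furthest out with medians of -0.49 and 0.68.

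Markers of cell division had lower values in transgenic libraries and stress-response genes higher ones, and edgeR called 0 of either list. All 8 proliferation genes were below 0 with a median of -0.49, and DESeq2 called all 8 lower, against 3.03% of all genes. Rrm2, a ribonucleotide reductase subunit, had 146, 149 and 135 CPM in transgenic libraries and 179, 212 and 230.4 CPM in wild-type libraries. The summed proliferation list stood at 2082 to 2449 CPM in transgenic and 2676 to 3441 CPM in wild-type libraries. All 8 stress-response genes were above 0 with a median of 0.68, 7 at an unadjusted p under 0.05 (5.71% of all genes), and DESeq2 called 2 higher (1.5% of all genes). Jund, a subunit of the AP-1 transcription factor, had 111, 102 and 125 CPM in transgenic libraries and 82.3, 84.2 and 76.0 CPM in wild-type libraries, and the groups did not overlap. Hspa1b, a heat shock protein 70 gene, had 129.5, 80.4 and 259 CPM in transgenic libraries and 40.9, 66.1 and 32.2 CPM in wild-type libraries. Transgenic replicate 3, the lowest library for the ribosomal proteins, was the highest for Hspa1b. The part of division or stress in the values of the ribosomal protein genes was not tested.

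The libraries held 39022300 to 42016300 fragments in the transgenic group and 45469500 to 46985600 in the wild-type group. Gata3 had 58.6, 53.6 and 61.6 CPM in transgenic libraries and 49.1, 38.2 and 43.5 CPM in wild-type libraries (log2 fold change 0.41 ± 0.10, edgeR adjusted p = 0.170). All 14 DN3a marker genes were detected, with a summed level of 11488 to 12354 CPM in transgenic and 10208 to 12039 CPM in wild-type libraries. edgeR called 0 of them. Unadjusted p was under 0.05 for 4 of them higher (5.71% of all genes) and 1 lower (7.7% of all genes). DESeq2 called 3 higher (Notch1, Notch3 and Bcl11b), against 1.5% of all genes. Notch3, a receptor of the Notch pathway, had 717 ± 23.5 CPM in transgenic and 578 ± 45.5 CPM in wild-type libraries, and Il2ra, which encodes CD25, had 339 ± 9.49 CPM in transgenic and 381 ± 15.2 CPM in wild-type libraries. The 5 later-stage markers summed to 164 to 235 CPM in transgenic and 137 to 170.2 CPM in wild-type libraries, most of it from Ccr9, a chemokine receptor gene (176 ± 41.4 CPM transgenic, 127 ± 19.4 CPM wild type). DESeq2 called 3 of the 5 lower, against 3.03% of all genes, and edgeR 0. These were Cd4 (3.71 ± 1.01 CPM transgenic, 6.89 ± 0.12 CPM wild type), Cd8a (3.23 ± 2.12 CPM transgenic, 8.19 ± 2.29 CPM wild type) and Cd8b1 (4.03 ± 1.47 CPM transgenic, 8.97 ± 1.76 CPM wild type). The part of these markers in the values of the ribosomal protein genes was not tested. None of 3 B cell markers passed the filter (summed 0.33 to 0.46 CPM transgenic, 0.04 to 0.26 CPM wild type), and 3 myeloid markers summed to 21.7 to 25.1 CPM in transgenic and 17.6 to 22.3 CPM in wild-type libraries. Earlier progenitor markers summed to 66.3 to 83.0 CPM in transgenic and 56.0 to 76.3 CPM in wild-type libraries. Natural killer and innate lymphoid markers summed to 31.8 to 40.7 CPM in transgenic and 32.8 to 46.8 CPM in wild-type libraries. Thymic stroma markers summed to 77.5 to 91.5 CPM in transgenic and 74.7 to 83.9 CPM in wild-type libraries. Dendritic and erythroid markers summed to 5.18 CPM or less in every library.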

How the data were processed

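RNA of DN3a thymocytes from 3 transgenic and 3 wild-type libraries was extracted with a column kit and depleted of ribosomal RNA with Ribo-Zero Gold, per the labels' protocols. TopHat2, Cuffdiff and the mm10 build are named without versions, per the submitters' processing notes. Neither the annotation nor the strandedness is stated in these sources. Per the file headers, the deposited table gives estimated counts of fragments and FPKM for each of 100144 transcripts and library, and the authors' own log2 fold change and q-value. No per-sample column lacked a sample (0 columns).

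The members and lists were chosen with earlier results of these data known. Estimated counts were summed per symbol and rounded to whole numbers. The 197 symbols with a failed estimate (status HIDATA) were left out. The test was edgeR 4.0.16 (R 4.3.3), quasi-likelihood, two-sided, with filterByExpr (minimum count 10, minimum total 15), TMM scaling, no covariate, and Benjamini-Hochberg adjustment over all 14653 genes with a threshold of 0.05. It was tested on simulated data. CPM are after TMM scaling. SEs derive from the F statistic, and 95% intervals use 9.612 degrees of freedom. With 39022300 to 46985600 fragments a library, counting error matters only for rare members. Replicate numbers were not used to pair the libraries in this fit.

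Members named were the 6 with the most positive and the 6 with the most negative fold change, the 5 highest and 5 lowest by wild-type FPKM, paralog pairs and genes of known role, and, from 8 of the 10 related lists, 1 or both of the 2 genes of smallest p. Others named for non-overlapping groups, copies, non-coding shares, low values or as markers were chosen after their values were seen. Near-identical copies were found with blastn 2.17.0. Alternatives were DESeq2 1.42.0, limma 3.58.1 on log2(FPKM + 0.1) and log2(FPKM + 1), other scalings, no filter, protein-coding transcripts only, a replicate block, a Y-linked RNA covariate, libraries left out, and, added after seeing the data, copies summed with and without the 2 libraries with Y-linked RNA. Sequences came from RefSeq (GRCm38.p6) and GENCODE M21. Values of 1 member and 1 related gene are not reported here.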

Additional observations from a re-analysis of the deposited data

How the results depend on the processing

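The 0 members called lower became 1 with DESeq2 (Rps25), and the 0 called higher became 1 without the 2 libraries with Y-linked RNA (Rplp0); under the other alternatives both counts were 0. The median log2 fold change of the members was between -0.07 and -0.02 in all alternatives. With libraries left out 1 at a time, the difference in share of fragments ranged over -0.179 to 0.0445 percentage points for the large and -0.124 to 0.0058 for the small subunit, and that of the ratio over -0.0119 to 0.0042. Shares of summed FPKM varied far more between libraries. The large subunit held 6.00, 3.48 and 1.70% in transgenic and 2.37, 6.69 and 5.32% in wild-type libraries. The small subunit held 5.57, 3.25 and 1.61% in transgenic and 2.18, 6.33 and 4.96% in wild-type libraries. The groups overlapped for both. Over all genes, deviations from the group means were little shared by same-numbered libraries (r = 0.103, 0.0566 and -0.0057). Pairs with different numbers ranged from -0.135 to 0.104. Replicate 1 of both groups still stood apart for Rps3a2, Rps3a3, Rpl3-ps1 and Rpl29, and a shared step in its handling was not tested. With the replicate block 0 members and 14 genes were called, and Rps4l was at -0.071.

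Of 645 alternative values of 36 named members, 44 changed sign, in 14 members, all with small or imprecise changes; the cause was not tested. With limma at both pseudocounts, Rpl13a was at 0.0042, Rpl23 at 0.0099, Rps3 at 0.017, and Rps4l at -0.090 and -0.026. With protein-coding transcripts only, Rpl23 was at 0.027, Rps29 at 0.011 and Rps3 at 0.0072. Without the libraries with Y-linked RNA, Rpl13a was at 0.048, Rpl23 at 0.014, Rpl3 at 0.080 and Rps4l at -0.32, and with copies also summed at 0.047, 0.013, 0.040 and -0.32. With libraries left out in turn the ranges were -0.057 to 0.037 for Rpl13a, -0.012 to 0.055 for Rpl17, -0.041 to 0.024 for Rpl23, -0.14 to 0.034 for Rpl3, -0.17 to 0.73 for Rpl3l, -0.055 to 0.0030 for Rpl5, -0.067 to 0.013 for Rplp2, -0.033 to 0.055 for Rps14, -0.021 to 0.053 for Rps24, -0.0025 to 0.11 for Rps27, -0.032 to 0.042 for Rps29, -0.040 to 0.014 for Rps3, -0.39 to 0.43 for Rps4l and -0.0037 to 0.055 for Rps9. With 3 libraries a group, depth limits only the rarest members, and the spread between libraries limits the rest.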
